A study of Mus musculus with 6 samples.

Results

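The sensors and stress effectors of the unfolded protein response were followed in long-lived plasma cells, which stay in the marrow and secrete antibody. The members were the rows of the deposited gene table whose symbol was Ern1, Atf6, Atf6b, Eif2ak3, Atf4, Ddit3, Ppp1r15a, Ppp1r15b, Dnajc3 or Trib3, 10 of 13642 genes, and all 10 were found. They were compared in 3 young and 3 old RNA-seq libraries, in FPKM (fragment counts scaled by gene length and by library total), a unit in which levels of different genes can be set side by side. The young libraries came from female C57BL/6J mice of 2 to 3 months, supplied by the Jackson Laboratory or by UCLA. The old libraries came from male C57BL/6J mice of 17 to 19 months from the colony of the National Institute on Aging. Age, sex and supplier therefore changed together and cannot be told apart. Cells were sorted from marrow as CD138 high and negative for B220, IgD, both classes of T cell receptor, CD11b and Gr-1, and each library was made from 5 ng of total RNA. The series text speaks of 3 independent groups of mice per age, and how many animals went into a library was not stated, so each p reflects only how these libraries spread, which may be technical.

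As background, the unfolded protein response is the signalling system by which the endoplasmic reticulum reports an excess of unfolded protein. Each of its arms starts at a sensor that spans the reticulum membrane. IRE1, encoded by Ern1, is a kinase and endoribonuclease that cuts Xbp1 mRNA. ATF6 is a membrane-tethered transcription factor that is released by proteolysis in the Golgi, and PERK, encoded by Eif2ak3, is a kinase that phosphorylates the translation initiation factor eIF2alpha. Plasma cells depend on IRE1 and XBP1 for high-rate antibody secretion, while the PERK arm is known to be held low during their differentiation. These mRNA levels report neither the cutting of Xbp1, nor the cleavage of ATF6, nor the phosphorylation of PERK.

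The IRE1 cut site shows what the gene table can and cannot resolve. In the coding sequence of the Xbp1 transcript searched (GENCODE M21, GRCm38) the pattern CNGCAGC occurred 3 times, and 1 pair of occurrences lay so that cuts after the first G of each release 26 bases, the length that IRE1 is known to remove. This stretch is chr11:5524279-5524304 on the plus strand and lies within 1 coding exon. It is printed with 12 bases on either side, the released bases in capitals:
Xbp1: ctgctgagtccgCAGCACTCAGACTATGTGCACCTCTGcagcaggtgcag
A gene-level FPKM counts mRNA with and without these bases alike, so Xbp1 values below are the sum of both forms.

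Promoter windows, from 250 bases before to 50 after the RefSeq start (GRCm38.p6), were matched by symbol for 8 of the 10 members, and were searched on both strands for elements of the arms. The ERSE (CCAAT, 9 bases of any kind, then CCACG), through which ATF6 acts, was found in 1 of these 8, Dnajc3, and in 0.119% of all 32851 windows. Of 15 genes with a window in the list of ATF6 processing and target genes described further on, 6 had it, among them Hspa5. These sequences are shown because Dnajc3 is the member with the element and Hspa5 a well-known gene that has it. The window of Eif2ak3, whose profile over the libraries was as close to that of Hspa5 as the profile of Dnajc3 was, held no ERSE. Capitals mark the element, at chr14:118937807-118937865 for Dnajc3 and chr2:34772005-34772063 for Hspa5, both plus strand, with 86 and 46 bases between it and the start site:
Dnajc3: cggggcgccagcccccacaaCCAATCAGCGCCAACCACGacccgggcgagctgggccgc
Hspa5: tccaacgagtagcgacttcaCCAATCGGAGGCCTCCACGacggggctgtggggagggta
The element TGATGNAAN, bound by ATF4 with C/EBP partners, was found in 1 of the 8 member windows, that of Trib3, and in 3.95% of all windows. In the list of PERK and ATF4 partners and targets 7 of 23 genes had it, Asns among them. The element lies 13 to 21 bases after the RefSeq start site in Trib3 and before that site in Asns, with 14 bases between. It lies on the strand opposite to Trib3 and on the same strand as Asns, at chr2:152344029-152344057 and chr6:7693214-7693242, both genes on the minus strand:
Trib3: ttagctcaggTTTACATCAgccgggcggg
Asns: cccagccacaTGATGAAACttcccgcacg
ERSE-II (ATTGG, 1 base of any kind, then CCACG) holds the half-elements of the ERSE at another spacing, with CCAAT inverted. It was found in 0 of the 8 windows and in 0.0365% of all. The UPRE core TGACGTGG was likewise found in 0 of the 8, and in 0.676% of all. In the Dnajc3 and Trib3 windows no element overlapped another. A match is a description of letters only.

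Judged from the steps between low values, young libraries had about 22.6 M to 25.3 M reads and old libraries about 27 M to 27.4 M. Genes above 0 numbered 8934 to 10664 in young and 11310 to 12049 in old libraries. Depth and detection therefore differed by group without overlap, and their part in the changes, above all of low genes, was not tested. For the 9 members other than Trib3, about 1104 to 30041 reads lay behind each value. Plasma cell markers were abundant in each library. Their 9 genes summed to 19897 to 23310 FPKM in 5 libraries and to 9123 in old replicate 3. Old replicate 3 also had the highest summed level of 6 measured erythroid markers, 703 FPKM against 19.1 to 266 elsewhere, and of 7 monocyte and macrophage markers, 669 against 86.4 to 349. The same held for 6 eosinophil, basophil and mast cell markers, 1692 against 898 to 1374, of which 4 were highest there. Most of this last sum was Prg2, which went the other way, at 1210 to 1353 FPKM in young and 861 to 1120 in old libraries. Every old library was below every young one for Prg2, as for 3.42% of all tested genes. The 8 neutrophil markers summed highest in old replicate 2, at 1197 FPKM, against 653 in old replicate 3. Among these 8 and the 7 monocyte and macrophage markers, only Lyz2 and Elane had every old library above every young one. Such separation was seen in 8.78% of all tested genes. The other markers of these lists overlapped, and S100a9, Ly6c2 and S100a8 had negative log2 changes (-1.14, -0.91 and -0.03). Lyz2 was at 26.8 to 99.1 FPKM in young and 179 to 516 in old libraries, and Elane at 0.0475 to 10.2 and 19.2 to 220 (limma unadjusted p = 0.00484 and 0.00432, adjusted p = 0.680 for both). The part of these cells in the members' values was not tested. Pax5, a transcription factor that defines B cells, was low but present, at 2.03 to 7.26 FPKM. In bulk RNA, fewer plasma cells and less of a transcript per plasma cell cannot be told apart.

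Differences between old and young libraries were tested with limma on log2(FPKM + 1) over the 10687 genes with a mean of at least 1 FPKM, a filter that all 10 members passed. With a Benjamini-Hochberg adjusted p under 0.05 as the threshold, 0 of the 10 members were called, and 0 had an unadjusted p under 0.05. Over all tested genes 0% were called, and 5.91% had an unadjusted p under 0.05. Every member had overlapping groups, while 12.2% of all tested genes did not overlap. Of the members, 6 had a positive and 4 a negative log2 change (old minus young), against 61.3% positive and 38.7% negative among all tested genes. After quantile normalization 7 members and 49.4% of all tested genes were positive. The median change of the members was 0.15 and that of all tested genes 0.23, and it was 0.018 for the 2835 tested genes with a mean of at least 20 FPKM, a range that holds 9 of the members.

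**Figure D1:**
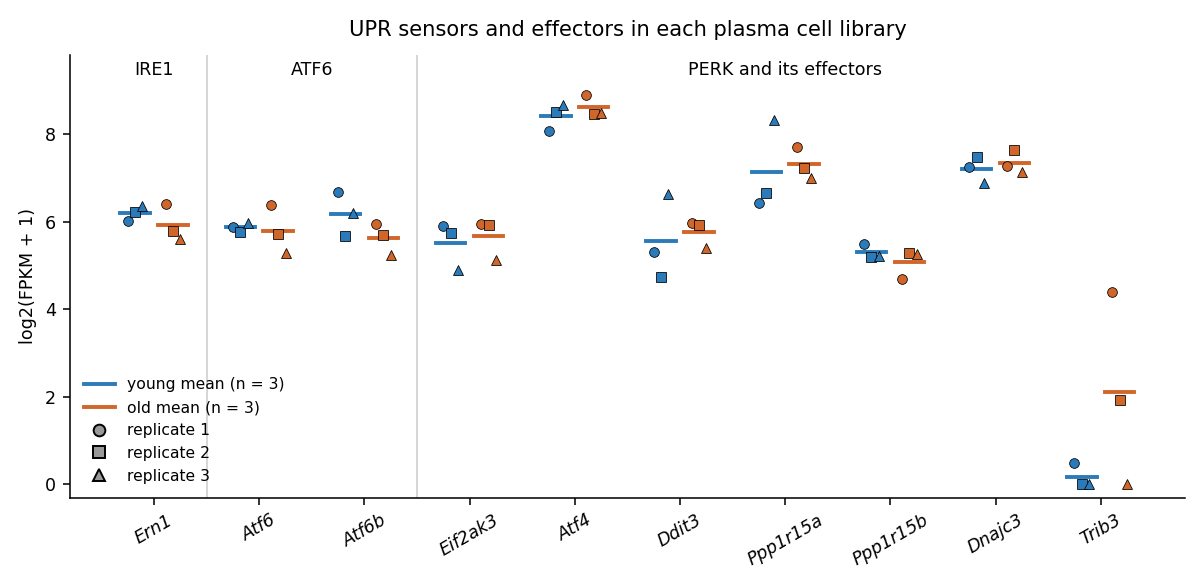
Level of each member in each library as log2(FPKM + 1), by arm, with young libraries in blue, old libraries in orange, a symbol for each replicate number and a bar at each group mean (n = 3). Atf4 lies at the top, Trib3 near 0 in 4 of 6 libraries, and the groups overlap for each of the 10 genes.

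Atf4 was the most abundant member, at 368 ± 65.9 FPKM (SD over the 6 libraries), above 99.5% of all genes in the table. Ppp1r15a and Dnajc3 followed at 164 ± 86.6 and 156 ± 29.1, and could not be ordered, since Ppp1r15a was the higher in only 2 libraries. Atf4 exceeded Ppp1r15a in 6 of 6 libraries, although their ranges overlapped. A gap without overlap separated Dnajc3 from the next members. Ern1 at 67.0 ± 14.6, Atf6b at 62.0 ± 22.7, Atf6 at 57.4 ± 14.8, Ddit3 at 54.0 ± 25.3 and Eif2ak3 at 48.9 ± 14 overlapped each with its neighbour. Ppp1r15b, at 35.9 ± 6.21, was below Eif2ak3 in 4 of 6 libraries. Trib3 was lowest in each of the 6 libraries, with no overlap with Ppp1r15b. The means of the sensors Ern1, Atf6 and Eif2ak3 therefore lay between 48.9 and 67.0 FPKM. Within a library they differed by up to 2.82-fold, for Ern1 over Eif2ak3 in young replicate 3. Each spanned 1.76-fold to 2.19-fold between its own lowest and highest library.

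Ern1 (ENSMUSG00000020715.9, chromosome 11, 106394650 to 106487852, minus strand) encodes IRE1alpha. It was at 63.3, 72.9 and 80.8 FPKM in young replicates 1 to 3 and at 83.4, 53.8 and 47.5 in old replicates 1 to 3. Old replicate 1 was the highest library and old replicates 2 and 3 the lowest, so the old values enclosed the young ones. The group means were 72.3 ± 8.81 and 61.6 ± 19.2 FPKM (SD, n = 3), a log2 change of -0.26 ± 0.35 (SE) with a 95% interval of -1.046 to 0.52 and a limma adjusted p = 0.901. Xbp1, the substrate of IRE1 and the regulator of the secretory programme, was at 924, 903 and 795 FPKM across the young replicates and 728, 915 and 414 across the old replicates. Its lowest value was in old replicate 3, where Ern1 and the sum of the plasma cell markers, which include Xbp1, were also lowest. The part of cell makeup in these values was not tested.

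Atf6 (ENSMUSG00000026663.6, chromosome 1, 170704674 to 170867771, minus strand) had the least spread of the members among young libraries, at 58.1, 53.1 and 61.2 FPKM, a coefficient of variation of 7.12%. In old libraries it was at 82.7, 51.9 and 37.8, a coefficient of variation of 40.0%. As for Ern1, old replicate 1 was the highest and old replicate 3 the lowest of all 6. The means were 57.4 ± 4.09 in young and 57.4 ± 23.0 across the old replicates, and the log2 change was -0.07 ± 0.38 (SE; 95% interval -0.92 to 0.78, limma adjusted p = 0.987). Without old replicate 3 the change was 0.19.

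Atf6b (ENSMUSG00000015461.15, chromosome 17, 34647146 to 34655074, plus strand) encodes the paralogue of ATF6, a weaker activator that can modulate ATF6. It was at 102, 50.1 and 71.8 FPKM across the young replicates and 60.6, 50.7 and 36.9 across the old replicates. Young replicate 1 stood highest and old replicate 3 lowest, with young replicate 2 inside the old range. Its log2 change of -0.55 ± 0.39 (SE; 95% interval -1.42 to 0.31) was the largest negative change of the 10 members and did not pass (limma adjusted p = 0.854). The ratio of Atf6b to Atf6 was 1.76, 0.943 and 1.17 across the young replicates and 0.733, 0.978 and 0.978 across the old replicates. Atf6b was thus the more abundant of the pair in young replicates 1 and 3 and the less abundant in the other 4 libraries.

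Eif2ak3 (ENSMUSG00000031668.14, chromosome 6, 70844515 to 70905245, plus strand) was at 58.5, 52.4 and 28.6 FPKM across the young replicates and 60.4, 59.3 and 33.9 across the old replicates. Both libraries numbered 3 were low and the other 4 lay between 52.4 and 60.4. Its log2 change was 0.15 ± 0.42 (SE; 95% interval -0.79 to 1.10, limma adjusted p = 0.969), and -0.16 without young replicate 3. In that library Eif2ak3 made up 16.8% of the summed FPKM of the 3 sensors, against 26.7% to 35.9% in the other 5. Ern1 took 47.4% there, against 32.6% to 40.9%. The sum of the 3 sensors was 180, 178 and 171 FPKM across the young replicates, and 227, 165 and 119 across the old replicates, so old libraries spread around the young ones on both sides.

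Dnajc3 (ENSMUSG00000022136.7, chromosome 14, 118937976 to 118981697, plus strand) encodes p58IPK, a lumenal co-chaperone first described as an inhibitor of eIF2alpha kinases. It was at 151, 178 and 116 FPKM across the young replicates and 153, 199 and 139 across the old replicates. In both groups the second replicate was the highest and the third the lowest. Means were 148 ± 30.9 and 164 ± 31.3 FPKM (SD, n = 3), with a log2 change of 0.15 ± 0.30 (SE; 95% interval -0.53 to 0.82, limma adjusted p = 0.948). Hspa5, which encodes the chaperone BiP and carries the ERSE shown above, was at 793, 892 and 434 FPKM across the young replicates and 687, 938 and 455 across the old replicates, the same order within each group. Pearson's r of log2(FPKM + 1) with Hspa5 over the 6 libraries was 0.904 for Dnajc3 and 0.905 for Eif2ak3. These values are given as a description of libraries that differ in depth and marker levels.

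Atf4 (ENSMUSG00000042406.7, chromosome 15, 80255184 to 80257541, plus strand) is the transcription factor whose translation is raised when eIF2alpha is phosphorylated, a step that mRNA levels do not show. It was at 269, 361 and 402 FPKM across the young replicates and 470, 352 and 355 across the old replicates. Young replicate 1 was the lowest and old replicate 1 the highest, and the other 4 lay within 352 to 402. Means were 344 ± 67.7 and 392.3 ± 67.4 FPKM (SD, n = 3), and the log2 change of 0.20 ± 0.28 (SE) had the shortest 95% interval of the members, -0.42 to 0.81 (limma adjusted p = 0.914).

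Ddit3 (ENSMUSG00000025408.15, chromosome 10, 127290774 to 127296288, plus strand) encodes CHOP, the factor linked to cell death under prolonged stress. It was at 38.6, 25.5 and 97.4 FPKM across the young replicates and 61.9, 59.2 and 41.1 across the old replicates. The highest and the 2 lowest values were all across the young replicates, and the old ones lay between. The group means were 53.8 ± 38.3 and 54.1 ± 11.4 FPKM (SD, n = 3), a log2 change of 0.21 ± 0.50 (SE; 95% interval -0.90 to 1.32, limma adjusted p = 0.958). Without young replicate 3 the change was 0.74, and it did not pass (limma adjusted p = 0.821, against a range of 0.821 to 0.998 over all alternatives). A second annotated protein-coding gene of the same name lies within Ddit3 on the same strand and has no row of its own in the table, so how its reads were assigned is unknown. Ddit3 also overlaps, at its start, Gm4189 on the other strand. At its 3-prime end Ddit3 overlaps Mars, a methionyl-tRNA synthetase gene on the other strand, and the sources used here do not give the use of strand. Mars was at 28.3 FPKM in young replicate 3, its lowest value, where Ddit3 was highest.

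Ppp1r15a (ENSMUSG00000040435.12, chromosome 7, 45522916 to 45526268, minus strand) encodes GADD34, the stress-induced phosphatase subunit that restores eIF2alpha. It was at 84.9, 98.9 and 318 FPKM across the young replicates and 207, 149 and 127 across the old replicates, a pattern close to that of Ddit3. Young replicate 3 was the highest and the other young libraries the lowest, for a 3.74-fold span across the 6. The log2 change was 0.18 ± 0.48 (SE; 95% interval -0.88 to 1.25, limma adjusted p = 0.963) and, without young replicate 3, 0.78 (unadjusted p = 0.0446, limma adjusted p = 0.8004). Pearson's r between Ddit3 and Ppp1r15a was 0.909 over the 6 libraries, the highest among pairs of members, and the ratio of Ppp1r15a to Ddit3 stayed within 2.20 to 3.88. Tulp2, which overlaps Ppp1r15a on the other strand, was at 1.78, 0.435 and 11.6 FPKM across the young replicates and 6.27, 5.23 and 12.1 across the old replicates. Among young libraries it was highest in replicate 3, as Ppp1r15a was. Its highest value of all was in old replicate 3, where Ppp1r15a was lowest among the old libraries.

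Ppp1r15b (ENSMUSG00000046062.5, chromosome 1, 133131143 to 133139783, plus strand) encodes CReP, the constitutive counterpart of GADD34. It was at 43.8, 35.4 and 36.2 FPKM across the young replicates and 24.8, 37.8 and 37.1 across the old replicates. The lowest value was in old replicate 1, where Atf4 was highest, and the other 5 lay between 35.4 and 43.8. Its log2 change was -0.22 ± 0.39 (SE; 95% interval -1.09 to 0.64, limma adjusted p = 0.926). Pearson's r between Ppp1r15b and Atf4 over the 6 libraries was -0.903, the most negative among pairs of members. The ratio of the induced to the constitutive subunit, Ppp1r15a over Ppp1r15b, was 1.94, 2.80 and 8.76 in young and 8.37, 3.95 and 3.43 across the old replicates. Young replicate 3 and old replicate 1 had the highest ratios. Ppp1r15a was highest in the former, and Ppp1r15b was lowest in the latter.

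Trib3 (ENSMUSG00000032715.9, chromosome 2, 152337422 to 152344032, minus strand) encodes a pseudokinase that is a target of ATF4 and CHOP. It was at 0.402, 0 and 0 FPKM across the young replicates and 20.1, 2.81 and 0 across the old replicates. About 21 reads lay behind the first value, and about 1159 and 164 behind the old ones above 0. Where it was listed at 0, a count of 0 allows up to 0.0558 and 0.0625 FPKM in young replicates 2 and 3 and 0.0523 in old replicate 3, if 3 reads are taken as the limit and counting error alone is covered. The highest value was in old replicate 1, which also had the highest Atf4, Ern1, Atf6 and Eif2ak3. The log2 change of 1.95 ± 1.11 (SE; 95% interval -0.52 to 4.42) did not pass (limma adjusted p = 0.844), and old replicate 3 at 0 lay inside the young range. With a young mean of 0.134 FPKM, Trib3 met the filter at a mean of 1 FPKM only through the old libraries.

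**Figure D2:**
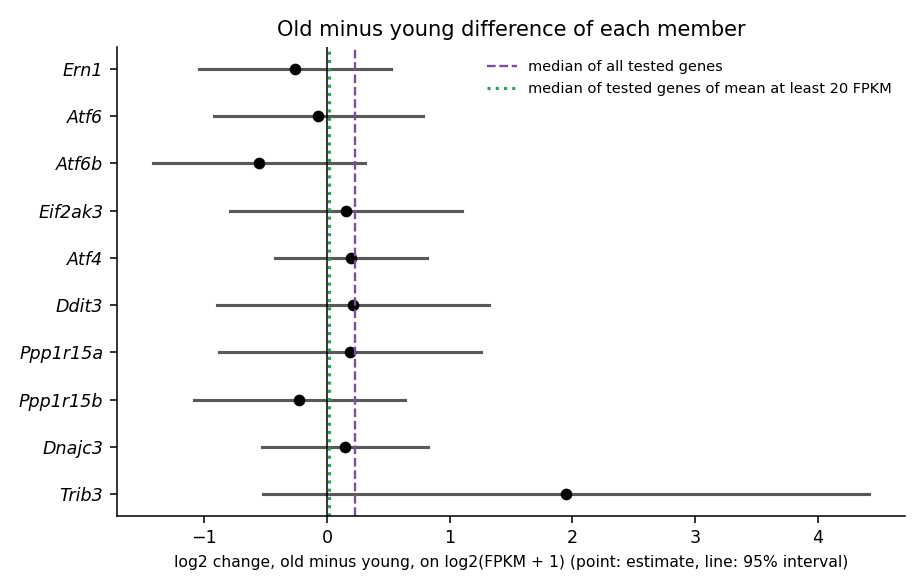
Old minus young change of each member on the log2(FPKM + 1) scale, with the estimate as a point and its 95% limma interval as a line, and dashed and dotted lines at the median of all tested genes (0.23) and of those with a mean of at least 20 FPKM (0.018). Every interval holds 0, and Trib3 has the widest, from -0.52 to 4.42.

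The members differed in which libraries were high. Relative to each gene's mean over the libraries, young replicate 3 was 0.96 higher for Ddit3 and 1.10 higher for Ppp1r15a on the log2 scale, while it was 0.69 lower for Eif2ak3 (-0.69), 0.40 lower for Dnajc3 (-0.40) and 0.62 lower for Hspa5 (-0.62). Ern1 (0.30) and Atf6 (0.13) were on the high side there. Old replicate 3 shared the low values of Eif2ak3 (-0.46), Hspa5 (-0.56) and Dnajc3 (-0.14). Unlike young replicate 3 it had Ern1 (-0.46), Atf6 (-0.55), Atf6b (-0.66) and Xbp1 (-0.86) all below their means. Atf4 (-0.03) and Ppp1r15b (0.07) were near theirs. In old replicate 1 Ern1 (0.34), Atf6 (0.56), Eif2ak3 (0.36), Atf4 (0.37) and Ppp1r15a (0.48) were above their means and Ppp1r15b (-0.50) below. Ern1 and Atf6 had a Pearson's r of 0.855 over the 6 libraries.

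**Figure D3:**
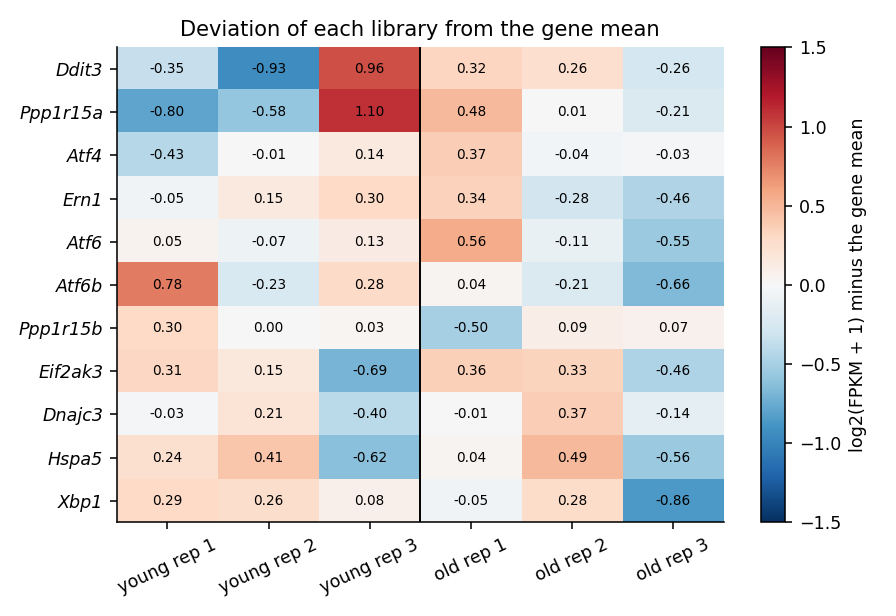
Difference of each library from the gene's mean over the 6 libraries, in log2(FPKM + 1), for 9 members and for Hspa5 and Xbp1, with red above and blue below the mean. In young replicate 3 Ddit3 (0.96) and Ppp1r15a (1.10) are high while Eif2ak3 (-0.69), Dnajc3 (-0.40) and Hspa5 (-0.62) are low.

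Immediate early genes and 2 heat shock genes, which respond to stimulation and to handling of cells, were read beside these values. These were 11 genes chosen after values were seen: Fos, Fosb, Jun, Junb, Egr1, Atf3, Dusp1, Ier2, Zfp36 and the heat shock genes Hspa1a and Hspa1b. Their sum was 306, 1151 and 2127 FPKM across the young replicates and 3019, 1927 and 987 across the old replicates. It was lowest in young replicate 1, as Ppp1r15a and Atf4 were, and highest in old replicate 1, as Atf4 was. Fos, Fosb and Jun made up most of the sum, and not all genes followed it. Hspa1a, Hspa1b and Atf3 were at 0 in young replicate 3, and Hspa1a and Hspa1b were highest in old replicate 3, at 10.4 and 31.2 FPKM. Fos went from 65.3 FPKM in young replicate 1 to 767 in old replicate 1, with 713 in young replicate 3, where Ddit3 and Ppp1r15a were highest. Young replicate 3 also had the highest level of 5 of 7 plasmacytoid dendritic cell markers and the fewest genes above 0. The part of handling, cell makeup or RNA quality in the Ddit3 and Ppp1r15a values was not tested.

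**Figure D4:**
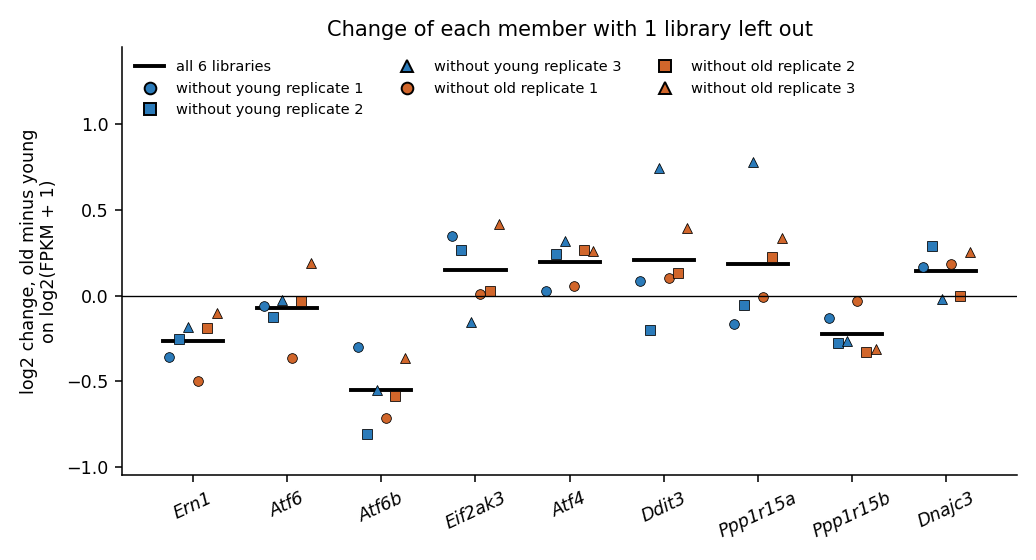
Change of 9 members (old minus young on log2(FPKM + 1)) with all 6 libraries (bar) and with each library left out in turn (symbols, blue for a young and orange for an old library left out). Ddit3 and Ppp1r15a move to 0.74 and 0.78 without young replicate 3, while Atf4 spans 0.03 to 0.32, Ppp1r15b -0.33 to -0.03, Ern1 -0.50 to -0.10 and Atf6b -0.81 to -0.30.

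Genes of each arm beyond the members came from lists that were put together with earlier results of these data known. Limma called 0 genes of these lists. Of 18 tested partners and targets of IRE1 and XBP1, 10 had a positive and 8 a negative log2 change, and the median was 0.05. The members of smallest p were Xbp1, Dnajb9, Derl2 and Sec61b. Dnajb9, an endoplasmic reticulum co-chaperone that holds IRE1 inactive, was at 129 ± 39.6 FPKM in young and 169 ± 30.4 across the old replicates (SD, n = 3), a log2 change of 0.42 ± 0.33 (SE). Derl2, a component of the pathway that removes misfolded proteins, was at 4.0, 3.30 and 3.00 FPKM across the young replicates and 10.1, 9.47 and 4.07 across the old replicates, without overlap. It was 1 of 18 such genes in the list, against 12.2% of all tested genes. Sec61b, a subunit of the translocon, had a log2 change of -0.43 ± 0.41 (SE). With single libraries left out, the median of the list was lowest at -0.18, without old replicate 2, and highest at 0.205, where old replicate 3 was left out. It was -0.15 without young replicate 3. Median-ratio scaling put it at -0.05, with 7 of 18 changes positive.

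Of 17 tested genes of ATF6 processing and targets, 5 had a positive and 12 a negative change, with a median of -0.17. Among the 14 with a mean of at least 20 FPKM the median was -0.19, against 0.018 for all genes of that level. Mbtps1, which encodes the site-1 protease that cleaves ATF6, was at 27.5, 32.8 and 24.0 FPKM across the young replicates and 16.5, 14.5 and 17.5 across the old replicates, so all old libraries lay below all young ones. Such separation with old below young was seen in 3.42% of all tested genes, and the log2 change of -0.75 ± 0.44 (SE) did not pass (limma adjusted p = 0.844). Mbtps2, the site-2 protease gene that acts next, is given for that role, outside the rule for named genes, and was at 1.54 ± 1.09 FPKM in young and 2.93 ± 1.16 across the old replicates. Sel1l, which anchors the degradation ligase of the reticulum, also had old below young, at 246, 266 and 264 FPKM against 232, 228 and 148. Creld2 and Herpud1, both induced by stress of the reticulum, went in opposite directions by value, at 773 ± 251 against 542 ± 253 and at 312 ± 66.9 against 414 ± 109 FPKM (SD, n = 3). With single libraries left out, the median of the list ranged from -0.34 without young replicate 3, with 3 of 17 changes positive, to 0.04 without old replicate 3, with 11 positive. It was -0.33 without old replicate 2, and -0.11 with replicates 3 of both groups left out.

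Of 22 tested partners and targets of PERK and ATF4, 17 had a positive and 5 a negative change, with a median of 0.56. At a mean of at least 20 FPKM it was 0.52 over 11 genes. Leaving out single libraries put the median between 0.32, without young replicate 3, and 0.63, without old replicate 1. Shmt2, a mitochondrial enzyme of serine and one-carbon metabolism, was at 62.5, 48.3 and 75.7 FPKM across the young replicates and 90.5, 125 and 76.5 across the old replicates. Sesn2, a stress-induced inhibitor of mTORC1, was at 3.81, 1.69 and 0.131 against 7.19, 7.77 and 3.97. These 2 genes had every old library above every young one, as did 8.78% of all tested genes, with a limma adjusted p = 0.841 for Shmt2 and 0.844 for Sesn2. Nars, an asparaginyl-tRNA synthetase gene, was at 88.5 ± 45.3 against 136 ± 27.4 FPKM, and Bcl2l11, which encodes the death-promoting protein BIM, at 16.9 ± 9.37 against 7.26 ± 2.21 (SD, n = 3). Chac1, a glutathione-degrading target of ATF4 named after seeing its values, was at 10.5, 71.2 and 132 FPKM across the young replicates and 34.5, 37.3 and 11.0 across the old replicates, highest in young replicate 3 like Ddit3. Asns, also outside that rule and shown above for its promoter element, was at 16.6, 19.0 and 49.4 against 86.2, 28.2 and 19.4, highest in old replicate 1 like Trib3 and Atf4.

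**Figure D5:**
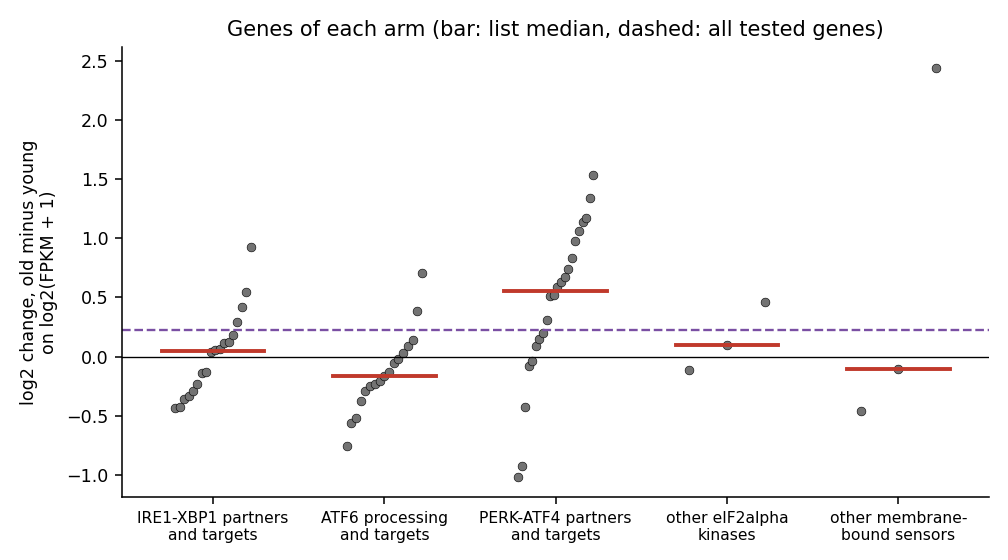
Log2 change (old minus young, log2(FPKM + 1)) of each tested gene in the lists around the arms, with a red bar at the list median and a dashed line at the median of all tested genes (0.23). List medians are 0.05, -0.17 and 0.56 for the IRE1, ATF6 and PERK lists, and limma called 0 of the genes shown.

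The eIF2alpha kinases that answer to other stresses were lower than Eif2ak3. Eif2ak1, responsive to heme shortage, was at 23.4, 32.9 and 5.90 FPKM across the young replicates and 19.1, 15.3 and 20.5 across the old replicates. Eif2ak2, the kinase PKR that binds double-stranded RNA, was at 20.6 ± 7.48 against 27.8 ± 4.24 FPKM (SD, n = 3), and Eif2ak4, the amino acid sensor GCN2, at 9.85 ± 7.07 against 8.79 ± 4.77. In each of the 6 libraries Eif2ak3 exceeded Eif2ak4, and limma called 0 of the 3. Other membrane-bound sensors built like ATF6 were also present. Creb3l2 was at 134, 115 and 66.5 FPKM across the young replicates and 104, 82.7 and 45.5 across the old replicates, above Atf6 in each of the 6. Creb3l1 was at 0, 0.720 and 0 across the young replicates and 6.32, 4.34 and 6.03 across the old replicates, a log2 change of 2.44 ± 0.80 (SE). It had an unadjusted p = 0.0121, the smallest in these lists, and did not pass (limma adjusted p = 0.736). Creb3, at 43.5 ± 46.2 against 25.8 ± 9.82 FPKM, ranged from 5.95 to 95.1 within the young group.

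The genes whose profiles over the 6 libraries were most like those of the sensors were picked by Pearson's r of log2(FPKM + 1) among genes with a mean of at least 5 FPKM. For Ern1 they were Usp30 (0.968), Ccdc88c (0.968) and Zfp956 (0.964), and for Atf6 they were Dbt (0.955), Dcaf7 (0.950) and Zfp777 (0.946). For Eif2ak3 they were Coq5 (0.977), Mrpl2 (0.977) and Gaa (0.9753). These values rest on 6 libraries that differ in depth and marker levels, and are given as a description.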

How the data were processed

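The deposited table held 1 column per library, named as FPKM by the authors, a unit that scales fragments by gene length and mapped total. How it was computed was not stated. Per the submitters' processing notes, bcl2fastq 2.17, STAR and DESeq2 were used, with the builds GRCm38 and mm10. For the counter, the annotation and the use of strand, the entry is: not given in the sources used here. Members and lists were chosen with earlier results of these data known.

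Genes with a mean of at least 1 FPKM were tested with limma 3.58.1 (R 4.3.3) on log2(FPKM + 1) with a mean-variance trend, two-sided, with Benjamini-Hochberg adjustment over all of them. This scale understates the change of low genes. No count model was run, and approximate reads came from the steps of low values and GENCODE M21 merged exon lengths. The fit was tested on simulated data. Tables and motifs used Python 3.11.15. Named genes were the members, Xbp1, Hspa5, up to 4 genes of smallest p per list and the 3 genes most like each sensor. Alternatives were other pseudocounts, filters and scalings, limma without the trend or with array weights, the replicate block, and leaving out libraries.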

Additional observations from a re-analysis of the deposited data

How the results depend on the processing

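No member was called under any of the 16 alternatives. Of 158 recomputed changes of members, 148 kept their sign and 10 did not. Atf6 had 0.019 under quantile normalization and 0.24 with replicates 3 of both groups left out, an alternative chosen after seeing the data. With single libraries left out, changes ranged from -0.37 to 0.19 for Atf6, -0.16 to 0.42 for Eif2ak3, -0.20 to 0.74 for Ddit3, -0.17 to 0.78 for Ppp1r15a and -0.017 to 0.29 for Dnajc3. Atf4 was lowest without young replicate 1 (0.029) and Ppp1r15b nearest 0 without old replicate 1 (-0.031). Ern1 was at -0.50 without old replicate 1 and -0.10 without old replicate 3, and Atf6b at -0.30 without young replicate 1 and -0.81 without young replicate 2. For Ddit3 the low end was without young replicate 2, and for Ppp1r15a it was without young replicate 1. For Ppp1r15a the change was also negative without young replicate 2 (-0.058) and without old replicate 1 (-0.0093), and for Dnajc3 without old replicate 2 (-0.0026). With replicates 3 of both groups left out, Ddit3 had 0.93 and Ppp1r15a 0.93 (limma adjusted p = 0.879 each). Trib3 had 3.40 at a pseudocount of 0.1 and 0.95 at 5. It ranged from 1.87 to 3.00 without single libraries, the high end without old replicate 3, and had 2.92 with replicates 3 of both groups left out. It fell under the filter at a mean of 5 FPKM and without old replicate 1, where it gave no value. Over all genes limma called 0, but 1 under quantile normalization, 1 with array weights, and 0 to 7 without single libraries, the 7 without young replicate 3. On the deposited scale 9 of the 10 members lay below the median change of all genes, 0.23. So did 1839 of the 2835 tested genes with a mean of at least 20 FPKM, a range that holds 9 of the members. With median-ratio scaling the median of all genes was 0.14, with 9 members below, and under quantile normalization it was -0.01, with 3 below. At a pseudocount of 5 it was 0.11, with 4 below, and without old replicate 3 it was 0.16, with 3 below. The filter at a mean of 5 FPKM left 9 members, with 4 below. Taken over all tested genes at once, same-numbered libraries did not deviate together (Pearson's r -0.034, 0.020 and -0.0041). This does not speak for single or abundant genes, and Eif2ak3, Dnajc3 and Hspa5 were low in both libraries numbered 3. The replicate block called 0 genes and 0 members, with Ddit3 at 0.21 (limma adjusted p = 0.968).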
